A study of Mus musculus with 2 samples.

Results

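This account concerns 10 genes of cytosolic protein folding: the 8 subunit genes of the chaperonin CCT (also called TRiC), namely Tcp1, Cct2, Cct3, Cct4, Cct5, Cct6a, Cct7 and Cct8, and the prefoldin subunit genes Pfdn2 and Pfdn4. They were chosen by name, as probe sets whose only gene symbol in the platform annotation is one of these 10, among 18193 genes on the array with 1 symbol. RNA came from whole lungs of mouse embryos at embryonic day 18, shortly before birth, on Affymetrix arrays with 45101 probe sets. The wildtype group was 1 array from pooled normal lungs, and the other group was 1 array from pooled lungs homozygous for Nmyc9a, a hypomorphic allele of Mycn. The comparison asks how transcript signals differ in lungs with reduced function of Mycn, the gene of the transcription factor N-Myc. The sources used here do not give strain, sex or how many lungs were pooled.

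CCT is a barrel of a pair of stacked rings, each built from 8 different but related subunits, and it folds actin, tubulin and many other newly made proteins in a cycle driven by ATP. Prefoldin is a smaller assembly of 6 subunits that holds nascent chains, above all actin and tubulin, and hands them to CCT. Growing and dividing cells are known for high levels of CCT, whose clients include cell cycle proteins as well as the cytoskeleton.

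All 8 CCT subunit genes had a lower signal on the array labelled Nmyc9a than on the wildtype array, by log2 ratios from -0.42 (Cct2) to -0.95 (Cct5). Their median was -0.62, which is 64.9% of the wildtype signal, against -0.09 for all 12600 measured genes. Pfdn4 was lower to a similar degree (-0.85), while Pfdn2 was nearly level (0.05). At 1.5-fold, the size used for counting, 6 of the 10 genes were lower (Cct5, Pfdn4, Cct8, Tcp1, Cct3 and Cct7) and none was higher. Among all measured genes 9.71% were lower by that size and 6.32% were higher. None of the 10 was 2-fold lower, a size reached by 1.38% of measured genes. At a smaller size, with the wildtype signal at least 25% above the other, 9 of the 10 were lower, all but Pfdn2, against 27.3% of measured genes.

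With 1 array per group there was no test, and no gene here has a replicate check. Pooling also hides how far single animals differ. In bulk RNA, fewer cells of a type and less RNA per cell cannot be told apart. A log2 ratio is the array labelled Nmyc9a over the wildtype array, a gene is represented by its brightest probe set, and "measured" means a mean signal of the arrays of at least 49.3, the floor below which values were raised to it. The error available is how far probe sets for the same gene disagree. Over 5671 genes their pooled SD was 0.40 in log2 units. Among 557 genes with at least 2 probe sets as bright as the dimmest CCT subunit it was 0.20. Taken from 0, the differences of all 8 CCT subunits and of Pfdn4 exceeded both SDs. Those of Cct2 (-0.42) and Cct4 (-0.46) exceeded the first by little. Probe sets of a gene were read on the same arrays, so neither SD holds the variation between lungs, RNA preparations or arrays. Exceeding them does not show a difference beyond that variation.

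Bright genes as a whole were lower on the array labelled Nmyc9a, and the CCT genes are bright. In the signal range of the CCT subunits (means of 583 to 2081), 1558 genes had a median log2 ratio of -0.23. Of these genes 75.1% stood below 0, against 58.8% of all measured genes. In that range 12.3% were 1.5-fold lower and 1.73% were higher. Relative to these genes Cct5 lay at percentile 1.80, Cct8 at 5.01, Tcp1 at 7.77, Cct3 at 7.83, Cct7 at 12.2, Cct6a at 19.9, Cct4 at 23.3 and Cct2 at 27.2, counted from the lowest ratio. After loess, which removes the trend with signal, all 8 stayed below 0 with a median of -0.41. Only Cct5 among them and Pfdn4 were then 1.5-fold lower (2 of 10, against 9.59% of measured genes). Quantile normalization gave a CCT median of -0.43 and 3 of 10 lower (Cct5, Cct8 and Pfdn4, against 10.9%). The direction of the 9 lower genes thus held under both scalings, and the size of the CCT shift did not. After loess the log2 ratios of Cct2 (-0.20), Cct4 (-0.23), Cct6a (-0.27) and Cct7 (-0.40) no longer exceeded the SD of 0.40 between probe sets of a gene. That of Cct2 (-0.195) then also fell just short of the SD among bright genes (0.201). After quantile normalization Cct2 (-0.18) fell short of it as well.

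**Figure D1:**
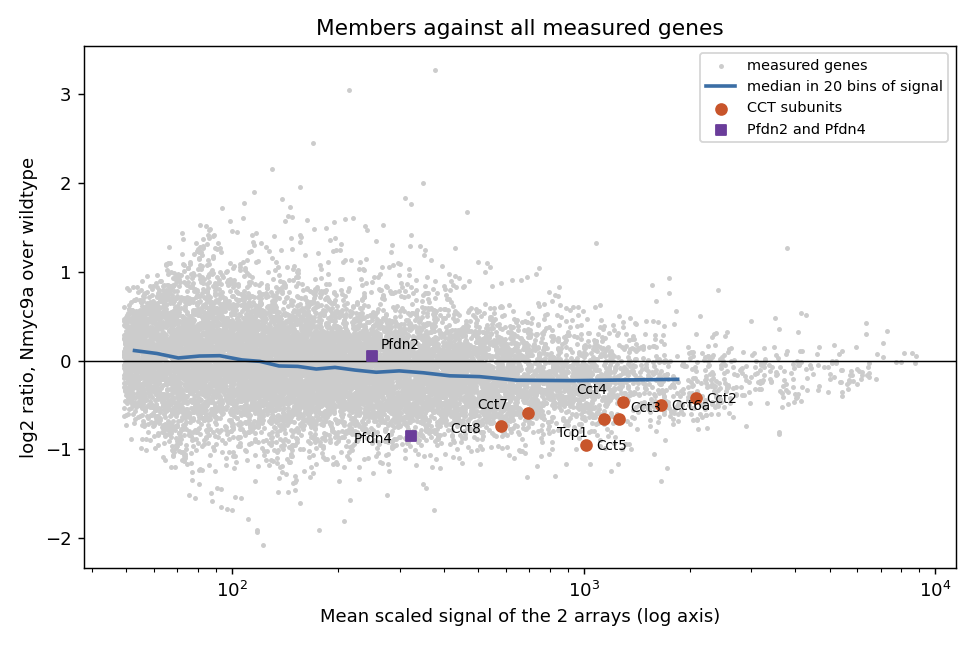
Log2 ratio (vertical axis) against the mean scaled signal of both arrays (horizontal log axis) for 12600 measured genes, with the 8 CCT subunits as circles, Pfdn2 and Pfdn4 as squares and the median in 20 bins of signal as a line. The line runs from 0.11 in the dimmest bin to -0.21 in the brightest, and all 8 CCT subunits lie below its values.

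The promoter stretches below belong to Cct5, Pfdn4 and Cct8, which had the lowest log2 ratios of the 10 genes, and to Cct7, which holds the most CCAAT boxes. Each is the run of 250 bases before the outermost RefSeq start of the gene in build GRCm38.p6, printed 5′ to 3′ on the gene's strand. Cct5 is at chr15:31601847-31602096 on the minus strand, Pfdn4 at chr2:170496178-170496427 on the plus strand, Cct8 at chr16:87495870-87496119 on the minus strand and Cct7 at chr6:85451255-85451504 on the plus strand. Capitals mark matches to the motifs searched on both strands, so a CCAAT box can read ATTGG and a GC box CCGCCC.
Cct5: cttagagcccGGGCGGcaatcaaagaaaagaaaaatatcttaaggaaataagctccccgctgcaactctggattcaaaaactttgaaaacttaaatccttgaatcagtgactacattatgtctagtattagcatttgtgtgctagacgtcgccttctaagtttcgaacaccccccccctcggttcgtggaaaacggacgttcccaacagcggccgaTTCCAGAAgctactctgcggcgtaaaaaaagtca
Pfdn4: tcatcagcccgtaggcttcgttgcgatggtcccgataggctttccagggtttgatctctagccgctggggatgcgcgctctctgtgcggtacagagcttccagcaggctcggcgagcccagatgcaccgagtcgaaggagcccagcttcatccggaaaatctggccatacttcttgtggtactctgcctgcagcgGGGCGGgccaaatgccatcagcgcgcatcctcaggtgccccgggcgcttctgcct
Cct8: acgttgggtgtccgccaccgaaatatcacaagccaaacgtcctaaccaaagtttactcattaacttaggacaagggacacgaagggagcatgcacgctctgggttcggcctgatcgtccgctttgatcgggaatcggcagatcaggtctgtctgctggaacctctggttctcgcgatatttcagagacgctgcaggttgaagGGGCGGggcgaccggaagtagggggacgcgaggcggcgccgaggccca
Cct7: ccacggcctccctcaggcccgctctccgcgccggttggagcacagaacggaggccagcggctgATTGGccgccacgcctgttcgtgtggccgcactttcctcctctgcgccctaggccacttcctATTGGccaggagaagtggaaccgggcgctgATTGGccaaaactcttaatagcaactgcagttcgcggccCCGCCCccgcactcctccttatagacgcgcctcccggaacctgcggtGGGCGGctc

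Such a stretch was found for 9 of the 10 genes, with Cct4 not in the sequence table, and for 5543 measured genes. The GC box GGGCGG, which Sp-family factors bind, was in 8 of the 9, against 55.2% of those measured genes. In Cct8 it begins 48 bases before the start and in Pfdn4 55 bases before it. Pfdn2 was the gene without one. A second start listed for Pfdn2 has 2 GC boxes in its window, so that difference depends on which start is read. Cct2 and Cct5 also have a second listed start, and its window holds 1 paired heat shock half-site and 1 GC box in Cct2, against 4 GC boxes in the first window, and no match to any of the motifs in Cct5. The CCAAT box, which NF-Y binds, was in 4 of the 9 (Tcp1, Cct3, Cct6a and Cct7), against 37.0% of genes. Cct7 holds 3, which begin 187, 125 and 95 bases before the start, and Cct3 and Cct6a hold 2 each. At least 2 matches occurred in 14.0% of genes. The E-box CACGTG, the preferred site of Myc proteins with Max, was in none of the 9 stretches, against 8.39% of genes. Paired half-sites of the heat shock element, searched as GAANNTTC or TTCNNGAA, occurred among these 9 stretches in that of Cct5 alone, as TTCCAGAA beginning 34 bases before the start, against 11.1% of genes. These are matches of letters in a short window and show no binding. A motif absent from the window may lie elsewhere in the gene.

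Cct5, the epsilon subunit, mutated in a human hereditary sensory neuropathy, had the lowest log2 ratio of the 10. Its single probe set (1417258_at) read 1335 for wildtype and 692 for Nmyc9a (the order of all pairs of signals here), a log2 ratio of -0.95 or 51.8% of wildtype. That placed it at percentile 1.83 of all measured genes. It kept at least 1.5-fold under every scaling, floor and probe set choice tried, from -0.95 to -0.73.

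Cct8, the theta subunit, read 729 and 437 by its measured probe set (1415785_a_at), a log2 ratio of -0.74 at percentile 4.83. A second Cct8 probe set (1436973_at) read 0.9 and 10.6, below the floor on both arrays, and gives no ratio. Tcp1, the alpha subunit and the first to be described, gave the complex its older name. Its single probe set (1448122_at) read 1399 and 885, a log2 ratio of -0.66 at percentile 7.08. So Cct8 and Tcp1 each rest on 1 probe set, as Cct5 does.

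Cct3, the gamma subunit, had 7 probe sets, 6 of them measured and all 6 lower on the array labelled Nmyc9a. The brightest (1416024_x_at) read 1544 and 976, a log2 ratio of -0.66, and the next (1448178_a_at) read 1425 and 1057, a log2 ratio of -0.43. Cct3 was therefore past 1.5-fold by the brightest and not by the next, nor by the median of its 6 measured probe sets (-0.50). The probe sets 1459987_s_at and 1449645_s_at read 415 and 197 (-1.08) and 270.3 and 181 (-0.58). The dimmest of the 6, 1426067_x_at and 1439679_at, read 136.5 and 131 (-0.06) and 72.9 and 64.4 (-0.18). The probe sets of Cct3 thus agreed in direction and spanned 1.02 on the log2 scale, more than the 0.53 between the highest and lowest CCT subunit. The seventh, 1451915_at, was below the floor on both arrays, at 3.3 and 4.89.

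Cct7, the eta subunit, stood just past 1.5-fold by its brightest probe set (1415816_at), at 832.5 and 554, a log2 ratio of -0.59 at percentile 9.63, and did not reach it with the values as deposited (-0.55). Its other probe set (1415817_s_at) read 532 and 276 and was lower by more, at -0.95. Cct6a, the zeta subunit, for which mammals also have a testis form, Cct6b, read 1936 and 1373 (1423517_at, -0.50) and 1308 and 844 (1455988_a_at, -0.63). Cct6a was therefore past 1.5-fold by the dimmer of its probe sets and not by the brighter. The testis gene Cct6b was below the floor on both arrays, at 17.2 and 24.4.

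Cct2, the beta subunit, mutated in a human inherited retinal disease, had the highest log2 ratio of the 8. Its 3 probe sets read 2384 and 1779 (1433535_x_at, -0.42), 1542 and 1293 (1433534_a_at, -0.25) and 1494 and 1167 (1416037_a_at, -0.36). All 3 were lower and spanned only 0.17 on the log2 scale.

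Cct4, the delta subunit, was the one member whose measured probe sets went both ways. The brightest (1433447_x_at) read 1504.5 and 1092, a log2 ratio of -0.46. Next came 1415867_at at 1224 and 1006 (-0.28) and 1438560_x_at at 894 and 755 (-0.25). The other measured ones were level or slightly higher, 1456082_x_at at 665 and 683 (0.04) and 1456572_x_at at 332 and 367 (0.14). The median of its 5 measured probe sets was -0.25, close to the -0.23 of genes of like signal, and 2 further Cct4 probe sets were below the floor on both arrays. A suffix x marks probe sets that can bind transcripts of other genes, and both of the level or higher ones carry it, as do the brightest and 1438560_x_at. The brightest probe sets of Cct2 and Cct3 carry it too.

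The order of the 8 subunits from the lowest ratio was Cct5, Cct8, Tcp1, Cct3, Cct7, Cct6a, Cct4 and Cct2. Cct5 and Cct8 were 0.21 apart, about the SD of 0.20, and no neighbours from Cct8 to Cct2 were further apart than 0.09. The SD of the 8 ratios was 0.17, below each of the SDs between probe sets of 1 gene, so these data do not separate most subunits from one another. Over the 27 probe sets of the 10 genes, 23 were measured and 20 of these stood below 0. By their brightest probe set, 58.8% of all measured genes and 75.1% of genes in the CCT signal range did. Those shares count genes, not probe sets. Of the 23, 9 were 1.5-fold lower, against 9.24% of the 22457 measured probe sets with 1 gene. None of the 23 was 1.5-fold higher. All 10 genes passed the filter on low values by their brightest probe set, on both arrays.

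**Figure D2:**
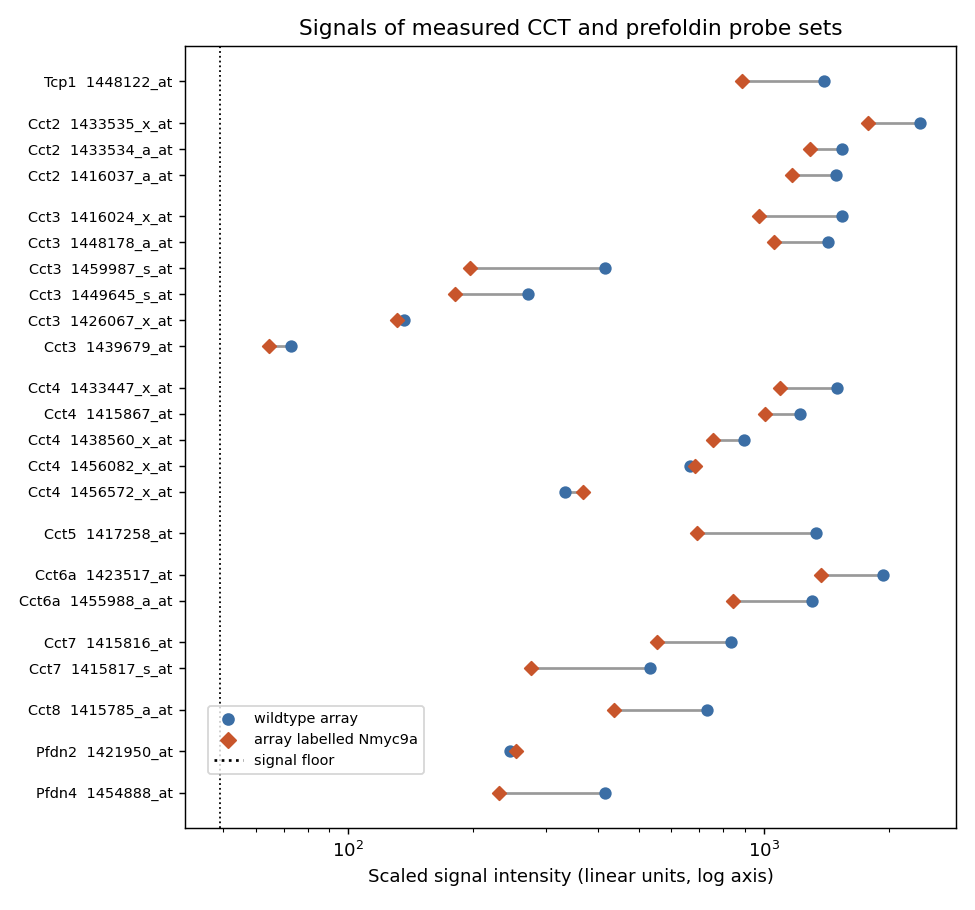
Scaled signal (horizontal log axis) of each of the 23 measured probe sets on the wildtype array (circles) and on the array labelled Nmyc9a (diamonds), grouped by gene with the brightest first. The diamond lies left of the circle in 20 of 23, and the exceptions are Pfdn2 and 2 dimmer probe sets of Cct4.

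**Figure D3:**
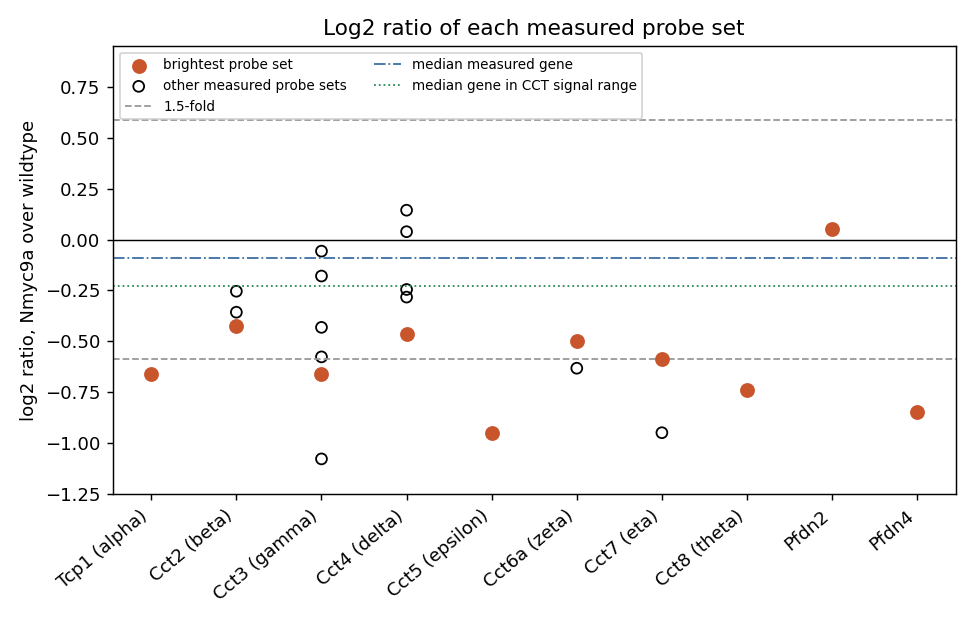
Log2 ratio of each measured probe set by gene, with the brightest filled and the others open; dashed lines mark 1.5-fold in either direction. Cct5, Cct8, Tcp1, Cct3, Cct7 and Pfdn4 lie at or beyond the lower line by their brightest probe set, and Pfdn2 lies at 0.05.

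The prefoldin members differed from each other. Pfdn4 is a beta-type subunit, as is Pfdn2, of which the complex holds one each. Pfdn4 read 415.5 and 231 (1454888_at), a log2 ratio of -0.85 at percentile 2.97 of all measured genes. Pfdn2 read 245 and 254 (1421950_at), a log2 ratio of 0.05 at percentile 63.5. The gap of 0.90 between them exceeded the SD of 0.40, and Pfdn2 stood 0.47 above Cct2, its nearest neighbour among the 10. That SD is for a single probe set, and a gap between 2 genes carries the error of both. Pfdn4 and Pfdn2 each rest on 1 probe set. A further probe set shared by Pfdn2 and its neighbour Klhdc9 (1435620_at), which the rule leaves out, read 144 and 132, a log2 ratio of -0.13.

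The other prefoldin subunit genes, which are not among the 10, stood close to the CCT subunits. Vbp1, the alpha-type subunit also called prefoldin 3, read 746 and 490 (-0.61). Pfdn5, the other alpha-type subunit, also known as a Myc-binding protein, read 863 and 603 (-0.52), and its second measured probe set was also below 0. The beta-type subunits Pfdn6 and Pfdn1 read 322 and 219 (-0.56) and 580 and 415 (-0.48). Of the 6 prefoldin genes 5 were below 0, all but Pfdn2, against 58.8% of all measured genes. Their median was -0.54. The 2 that were 1.5-fold lower were Pfdn4 and Vbp1, the latter not after loess, at -0.43.

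All 3 measured cofactors of the CCT ring stood below 0, as did 58.8% of all measured genes. The phosducin-like proteins bind CCT and help it fold actin, tubulin and G protein subunits. Pdcl3 read 609 and 375 (-0.70), Pdcl 502 and 334 (-0.59) and Txndc9 687 and 475 (-0.53), so 2 of the 3 measured were 1.5-fold lower (after loess 0). Without probe sets of the suffixes x, s and a their median of -0.59 became -0.17 and 1 was 1.5-fold lower. Pdcl2 was below the floor. Among genes of CCT-like proteins that assemble the Bardet-Biedl complex of cilia, Mkks read 277 and 172 and Bbs10 91.2 and 56.7, both at -0.69. These rest on probe sets of the suffixes a and s, and without such probe sets the median of this pair was -0.21 and neither was 1.5-fold lower. Bbs12 was not measured, nor was Cct8l1.

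Tubulin leaves CCT for a second set of cofactors, and 5 of these 6 genes stood below 0, against 58.8% of all measured genes. Of the 6, 1 was 1.5-fold lower (after loess 0). Tbca, which receives beta-tubulin, read 1462 and 950 (-0.62) and was lower by all 4 of its measured probe sets. Tbcd stood at -0.56, Tbcc at -0.50, Tbcb at -0.41 and Tbce at -0.15. Arl2, the small GTPase that works with cofactor D, went the other way at 254 and 315 (0.31).

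The genes of proteins that CCT folds differed among themselves. Of 13 measured actin and tubulin genes and their relatives, 11 stood below 0, against 58.8% of all measured genes, and 2 were 1.5-fold lower. Their median was -0.41, and after loess it was -0.18 with 8 of the 13 below 0. Tubb6, a beta-tubulin, read 226 and 95.7 (-1.24) and Tubg1, the gamma-tubulin of centrosomes, 82.2 and 54.6 (-0.59). Actb, beta-actin, was level at 7891 and 8400 (0.09), and Tubb4a stood at 0.50. Of 12 other clients 3 were 1.5-fold lower and 0 were higher. Their median of -0.10 became 0.04 after loess. Vhl, the von Hippel-Lindau tumour suppressor, stood at -0.77 and Plk1, a mitotic kinase, at -0.65, while Rptor of the mTOR complex stood at 0.17 and Wrap53, a telomerase factor, at 0.53.

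Other folding machines of the cell resembled CCT in part. The mitochondrial chaperonin Hspd1 (Hsp60) read 1205 and 768 (-0.65), its lid Hspe1 (Hsp10) 790 and 466 (-0.76), Trap1 313 and 210 (-0.58) and Hspa9 299 and 220 (-0.44), with 2 of 4 past 1.5-fold and 0 after loess. In the cytosolic Hsp70 and Hsp90 system 2 of 7 were 1.5-fold lower and the median was -0.51, with 0 past 1.5-fold after loess. Hsp90aa1 read 2671 and 1565 (-0.77) and Dnaja1, an Hsp70 partner, 1504 and 988 (-0.61), against Stip1, the adaptor between Hsp70 and Hsp90, at -0.16 and Dnajb1 at 0.02. The prefoldin-like URI complex and its partner R2TP had none of 7 lower by 1.5-fold, with a median of -0.28. Within these Ruvbl1 stood at -0.54, Uxt at -0.42 or lower, Uri1 at -0.01 (0.21 after loess) and Pih1d1 at 0.70, though only 2 of the 4 measured probe sets of Pih1d1 were above 0. No difference between CCT and any of these lists was tested.

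**Figure D4:**
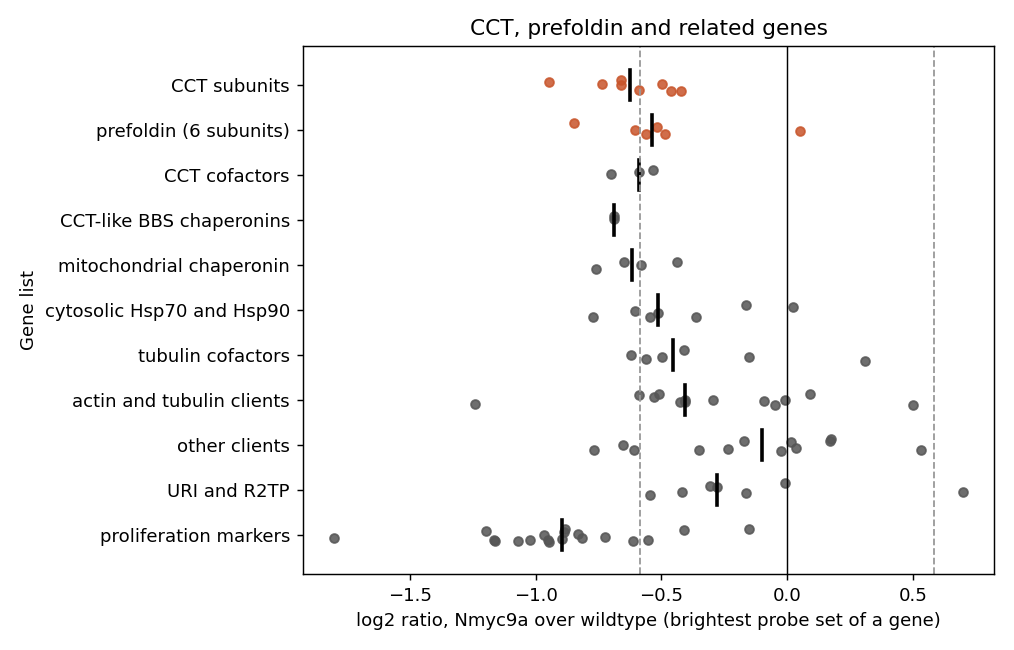
Log2 ratio of the brightest probe set of each measured gene (points, spread vertically for legibility) by gene list, with the median of each list as a black bar and dashed lines at 1.5-fold. The CCT median is -0.62, the median of the 6 prefoldin genes is -0.54 with Pfdn2 apart at 0.05, and the proliferation markers have a median of -0.89.

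Over the 10 related lists, regulators included, 15 of 62 measured genes were 1.5-fold lower and 1 was higher. Among all measured genes 9.71% were lower and 6.32% higher, shares that also stand beside the counts of the single lists above. Their median was -0.41. After loess 6 of the 62 were lower, a share close to the 9.59% of all measured genes. Of 5 genes listed as regulators (Mycn, Myc, Max, Hsf1 and Hsf2) 4 were measured, and 0 of these were 1.5-fold lower or higher. Whether they act on the chaperone genes here was not tested. Hsf1 had no probe set that names it alone, so it gives no value. Mycn, altered in these lungs, read 66.3 and 84.8 (0.36, or 0.15 after loess), close to the floor. Where its probes lie relative to the altered part is not known here, so its signal does not check the label. Myc, also dim at 84.5 and 67.6, stood at -0.32 (-0.53 after loess). Its partner Max stood at -0.06 (-0.09 after loess) and the heat shock factor gene Hsf2 at 0.13 (-0.04 after loess).

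Surfactant genes, which define lung epithelium, were bright on both arrays, with Sftpc at 8639 and 8964 and Sftpb at 5203 and 5201. Lung epithelium had 2 of 13 markers 1.5-fold lower (median -0.03, or 0.10 after loess), with Sftpd at -0.83 and Aqp5 at -0.71 lowest and Scgb1a1 at 0.54 and Epcam at 0.52 highest. Of 8 endothelial markers 0 were past 1.5-fold (median 0.13, or 0.31 after loess), from Emcn at -0.39 and Tek at -0.21 to Cdh5 at 0.24 and Flt1 at 0.55. Of 9 mesenchymal markers 1 was lower (median -0.05, or 0.17 after loess), with Acta2 at -0.76 and Pdgfra at -0.41 lowest and Col1a1 at 0.14 and Pdgfrb at 0.34 highest. Of 7 macrophage markers 1 was lower (median -0.10), Mrc1 at -0.70, followed by Adgre1 at -0.29, with Cd14 at 0.12 and Lyz2 at 0.32 highest. Of 10 heart muscle markers 3 were higher and 0 lower (median 0.06), with Actn2 at 0.97 and Ryr2 at 0.71 highest. Tnni3 at -0.58 and Myl4 at -0.42 were lowest. Among all measured genes 9.71% were 1.5-fold lower and 6.32% higher.

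Markers of dividing cells were lower along with the CCT genes. Of 19 measured from a list of 22, 16 were 1.5-fold lower, against 9.71% of all measured genes, and the median of the 19 was -0.89. Bub1 and Bub1b were below the floor on the array labelled Nmyc9a and passed the filter only through the wildtype array. Summed, these 19 read 7782 and 4105. Mcm5, of the replicative helicase, stood at -1.80 and Bub1b, of the spindle checkpoint, at -1.20 or lower, against Ccnb2 at -0.41 and Aurkb at -0.15. Of 5 measured red cell markers (of 8 listed) 2 were also lower, Trim10 at -1.35 and Slc4a1 at -0.77, while Alas2 stood at -0.37, Klf1 at -0.24 and Hbb-y at 0.10. Their median was -0.37, or -0.76 without probe sets of the suffixes x, s and a, and the sums were 5798 and 4370. Liver markers went the other way, with 5 of 8 measured (of 14 listed) higher, against 6.32% of all measured genes, and 1 lower. Their summed signals were 682 and 1409. Apoa1, Ttr, Fgg and Hpx were below the floor on the wildtype array and passed the filter only through the array labelled Nmyc9a. Apoa1, Ttr and Fgg are among the 5, so that count depends in part on the filter. Alb read 139.5 and 558 and Afp 63.9 and 248, against Hpx at 0.32 or higher and Rbp4 at -0.70. Of 5 measured skeletal muscle markers (of 12 listed) 2 were higher, Acta1 at 2.15 or higher and Mylpf at 1.46. Ckm stood at 0.51, Casq1 at 0.37 and Myod1 at 0.14, and the sums were 435 and 819. Acta1, below the floor on the wildtype array, also passed the filter only through the array labelled Nmyc9a. The part of any of these tissues or of dividing cells in the CCT and prefoldin values was not tested.

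Across processing choices the 10 genes kept their signs. Log2 ratios of Tcp1 ranged from -0.66 to -0.44, those of Cct8 from -0.74 to -0.56, those of Cct7 from -0.77 to -0.40 and those of Pfdn4 from -0.85 to -0.75. Cct3 ranged from -0.66 to -0.18, where the last value came from leaving out probe sets with the suffixes x, s and a, since that leaves only its dimmest measured probe set. Without these probe sets 4 of the 8 members still measured were 1.5-fold lower, against 9.12% of measured genes. Cct2, Cct4 and Cct6a reached -0.18, -0.23 and -0.25. Pfdn2 stayed between 0.05 and 0.12.

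**Figure D5:**
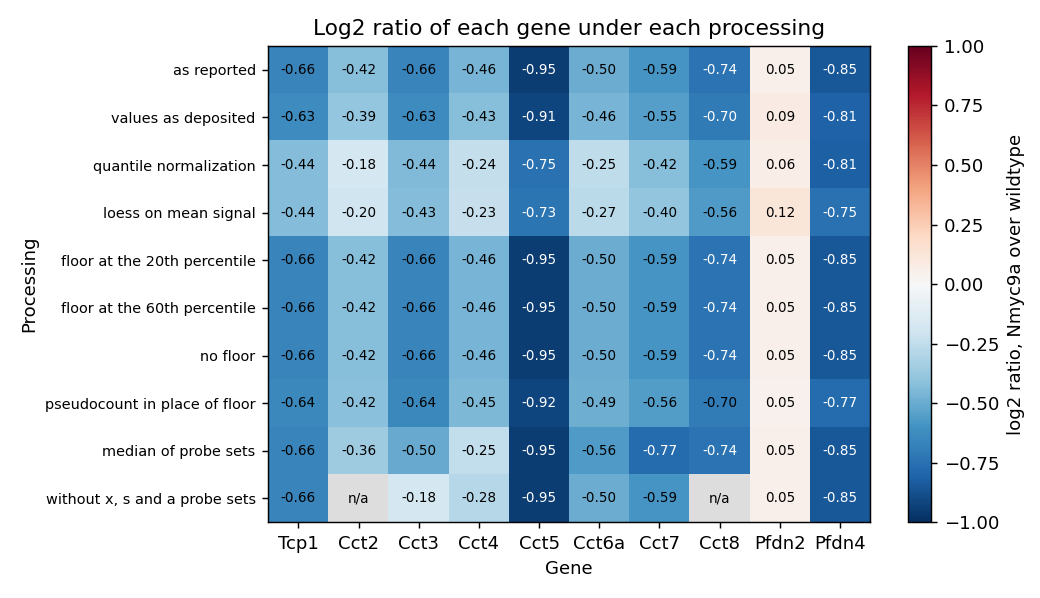
Log2 ratio of each of the 10 genes (columns) as reported and under 9 alternatives of scaling, floor and probe set choice (the other lines), with colour from blue (lower on the array labelled Nmyc9a) to red (higher); n/a marks genes left without a probe set. All values of the CCT subunits and Pfdn4 are below 0, and Cct5 stays at or below -0.73.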

How the data were processed

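The deposited values are linear signal intensity per probe set; the design text and labels give pooled lungs, Trizol and RNeasy extraction, and biotin with an Affymetrix labelling protocol. No source used here names the software or scaling that the authors used. After 64 control probe sets were set aside, a factor of 0.977 brought the Nmyc9a signals to a median log2 ratio of 0 among probe sets not below the floor. The floor was the 40th percentile (49.3). Printed signals are scaled and not floored. Genes were named through the platform annotation, updated by Entrez identifier to RefSeq (34741 of 34945 probe sets with 1 symbol matched). A gene's brightest probe set stands for it, which left 12600 measured genes. Ratios were counted by size, with no test. The number of arrays limits the precision.

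The 10 genes, the related and marker lists and the size rule were chosen with earlier results of these data known. Outside the 10, all genes of lists with up to 6 measured were named, otherwise the 2 highest and 2 lowest, plus defining markers. Further genes and probe sets singled out, the signal range of the CCT subunits and the SD among bright probe sets were chosen after values were seen. Promoters came from RefSeq, GRCm38.p6. Protein comparison of the subunits was planned and not run, since no protein sequences were used here. Alternatives were the values as deposited, quantile normalization, loess (span 0.3), other floors (percentile 20, percentile 60, no floor), a pseudocount of 32, the median of probe sets, leaving out x, s and a probe sets, and a smaller size (one array 25% above the other) and a larger one (2-fold). The scaling and ratio steps were tested on simulated data. Python 3.11.15, pandas 2.3.3 and statsmodels 0.14.6 were used.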

Additional observations from a re-analysis of the deposited data

How the results depend on the processing

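All 10 genes kept the sign of their log2 ratio under each alternative that gave a value, and the CCT median ranged from -0.62 to -0.41. The count of 6 of the 10 genes at least 1.5-fold lower became 3 after quantile normalization, 2 after loess and 0 with a size of 2-fold. For the CCT subunits alone, 5 became 2, 1 and 0 under the same changes, 3 without x, s and a probe sets (which removes Cct2 and Cct8) and 8 with the smaller size (wildtype 25% above Nmyc9a), which 27.3% of all measured genes reached. No member was higher by the size rule under any alternative. The 15 genes of the related lists that were lower became 6 of 62 after loess, against 9.59% of measured genes. They became 9 with the pseudocount, 35 with the smaller size and 1 at 2-fold. Loess and quantile normalization take out a trend with signal; whether that trend is technical was not tested. No paired analysis was possible because each group held 1 array. Probe sets below the floor on both arrays carry no ratio, so nothing can be said of Cct6b or of such probe sets of Cct3, Cct4 and Cct8. Where a measured gene was below the floor on 1 array only, its ratio is a bound.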
